A study of Mus musculus with 4 samples.

Results

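The innate inflammatory cytokines described here are IL-6, IL-1β, TNF-α, GM-CSF (also called CSF-2) and MIF, which are 5 of the 98 genes of an RT-qPCR panel and 5 of its 18 cytokines. They were taken by name as a set, and the rule uses no measured value, though earlier results of these data were known when it was written. The panel was measured in whole lungs of female C57BL/6J mice, 6 to 8 weeks old, in 4 groups. Every mouse received an injection into the lung in Matrigel, which held Lewis lung carcinoma cells (LLC, a mouse lung cancer line) in the LLC groups and only buffered saline in the vehicle groups. Every mouse was then dosed intranasally on Days 3, 6 and 9, either with 10 µg of recombinant S100A8, a calcium-binding protein of neutrophils and other myeloid cells, or with HBSS, the salt solution that carried it. The cancer-free groups are therefore HBSS + vehicle and S100A8 + vehicle, the cancer-bearing groups are HBSS + LLC and S100A8 + LLC, and lungs were taken on Day 10. LLC is 1 cell line, and lungs of the LLC groups hold cancer cells as well as host tissue.

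These cytokines are among the earliest signals of innate immunity. IL-1β is made as an inactive precursor by macrophages and neutrophils and is released after cleavage by caspase-1. TNF-α is shed from the surface of activated macrophages, and both cytokines switch on NF-κB in the cells they reach. IL-6 is induced by them in macrophages, fibroblasts and epithelium and signals through gp130 and STAT3 to the acute-phase response. GM-CSF is made by the alveolar epithelium among other cells and is needed for alveolar macrophages to mature. MIF differs from the rest in that many cells hold it ready-made at a constant mRNA level, and it signals through CD74. In tumour-bearing animals these cytokines are known for their part in expanding, recruiting and activating myeloid-derived suppressor cells, and the comparison of the 4 groups asks how S100A8 and LLC cancers altered their mRNA in the lung.

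The promoters are shown because the members of the group differ in the control elements near their start sites, and because the comparisons below ask which of them changed together. Each line gives the 250 bases before the RefSeq start site in the mouse assembly GRCm38.p6, read 5′ to 3′ on the gene's own strand. Capitals mark every match to 3 motifs, each searched on both strands: the NF-κB consensus, the TATA box TATAAA and the AP-1 motif TGANTCA. The NF-κB and TATA box matches found lay on the gene's own strand. The windows are chr5:30012864-30013113 (plus strand) for IL-6, chr2:129371140-129371389 (minus strand) for IL-1β, chr17:35202008-35202257 (minus strand) for TNF-α, chr11:54249900-54250149 (minus strand) for GM-CSF and chr10:75860278-75860527 (minus strand) for MIF.
IL-6: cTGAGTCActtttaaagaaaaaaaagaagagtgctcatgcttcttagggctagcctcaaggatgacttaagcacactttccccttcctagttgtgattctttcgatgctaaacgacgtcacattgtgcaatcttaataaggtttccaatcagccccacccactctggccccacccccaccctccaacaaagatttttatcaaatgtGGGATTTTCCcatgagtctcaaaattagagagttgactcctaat
IL-1β: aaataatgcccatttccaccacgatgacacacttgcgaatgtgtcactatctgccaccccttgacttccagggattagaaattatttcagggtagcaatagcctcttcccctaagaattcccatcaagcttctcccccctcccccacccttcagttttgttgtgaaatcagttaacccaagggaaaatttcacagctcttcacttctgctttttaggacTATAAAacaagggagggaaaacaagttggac
TNF-α: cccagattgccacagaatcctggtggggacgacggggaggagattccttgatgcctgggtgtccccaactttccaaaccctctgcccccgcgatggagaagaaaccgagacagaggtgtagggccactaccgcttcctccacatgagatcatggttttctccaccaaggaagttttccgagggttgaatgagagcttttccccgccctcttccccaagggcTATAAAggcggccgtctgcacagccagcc
GM-CSF: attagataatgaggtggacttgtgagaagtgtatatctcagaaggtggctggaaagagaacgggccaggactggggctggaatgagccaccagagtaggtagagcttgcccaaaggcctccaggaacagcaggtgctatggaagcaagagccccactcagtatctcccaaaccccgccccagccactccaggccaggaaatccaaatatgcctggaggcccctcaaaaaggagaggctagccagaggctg
MIF: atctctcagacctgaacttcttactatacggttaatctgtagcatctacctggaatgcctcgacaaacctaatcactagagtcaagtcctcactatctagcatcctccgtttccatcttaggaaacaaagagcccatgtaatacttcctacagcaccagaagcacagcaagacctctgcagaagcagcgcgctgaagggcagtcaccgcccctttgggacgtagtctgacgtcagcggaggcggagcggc
The IL-6 window held an NF-κB consensus match 44 to 35 bases before the start and an AP-1 match 249 to 243 bases before it. The IL-1β window held a TATA box 31 to 26 bases before the start, and the TNF-α window 1 at 29 to 24 bases. The GM-CSF and MIF windows held none of the 3 motifs on either strand. Among 32851 mouse windows of the same length, 3.90% held the NF-κB consensus on either strand, 12.4% the TATA box and 6.75% the AP-1 motif. A match describes the sequence and not the binding of a factor.

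RT-qPCR gives a threshold cycle (Ct), the number of amplification cycles at which a transcript becomes detectable, and 1 cycle less stands for about 2 times as much template. The authors averaged Ct over 4 to 5 mice in each group, so each gene has 1 value per group, with no spread between mice, no SD and no test. Differences are therefore described by size alone, and more than 2-fold in either direction is used below as a description and not as a measure of significance. Fold changes were taken relative to the mean of 2 housekeeping assays, called first and second because the deposited values do not say which is β-actin and which β2M. These assays moved apart between groups. The difference between them changed by 3.20 cycles in HBSS + LLC against HBSS + vehicle. Against the same group it changed by 1.28 cycles with S100A8 alone and by 1.48 cycles with S100A8 + LLC. It changed by 1.72 cycles between the LLC groups, and by 0.20 cycles between the S100A8 groups. The last comparison is thus the one in which the choice of housekeeping assay mattered least. Ranks of fold changes among panel genes and ratios between cytokines do not depend on the reference and are given beside the fold changes. Fewer cells of a type and less mRNA per cell cannot be told apart in whole lung.

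All 5 cytokines were readily detected, with a mean Ct under 30 in each of the 4 groups. MIF had the lowest Ct, 19.27 in HBSS + vehicle lungs, 20.34 with S100A8 alone, 19.35 with LLC alone and 20.53 with both. Its raw Ct was about 1 cycle later in the S100A8 groups and nearly alike with and without LLC. In that order of groups, IL-1β had Ct values of 21.12, 23.21, 21.64 and 24.00. Its raw Ct was again later in both S100A8 groups, and latest in S100A8 + LLC. TNF-α had a Ct of 23.46, 24.60, 24.58 and 25.82. Here S100A8 and LLC were each accompanied by a delay of about the same size, and the group with both was latest. GM-CSF had a Ct of 23.68, 24.18, 23.85 and 25.61, so that 3 groups lay close together and S100A8 + LLC stood apart from them. IL-6 had the highest Ct, 26.07, 29.13, 26.36 and 28.29. It was the only one of the 5 whose latest group was S100A8 + vehicle and not S100A8 + LLC. Because primers amplify with different efficiency, these Ct values do not rank the cytokines by abundance. The housekeeping assays were themselves later in the S100A8 groups than in the HBSS group with the same injection, with the first assay at 14.09, 16.17, 15.35 and 15.82 and the second at 22.50, 23.30, 20.56 and 22.75.

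**Figure D1:**
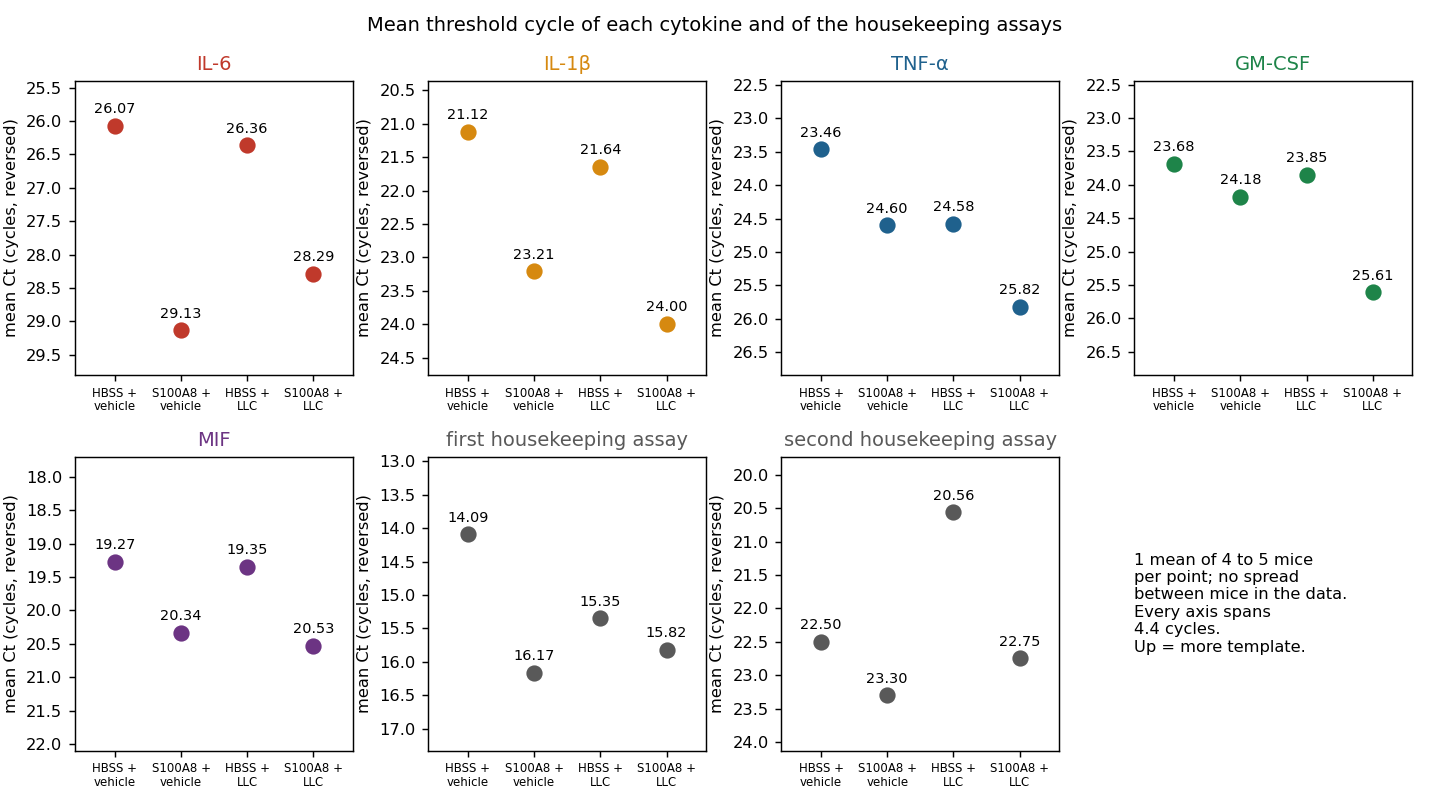
Mean Ct (cycles, axis reversed so that up is more template) of the 5 cytokines and of both housekeeping assays in the 4 groups; each point is 1 mean of 4 to 5 mice and every axis spans the same number of cycles. IL-6, IL-1β and MIF sit about 1 cycle or more lower in both S100A8 groups than in both HBSS groups, GM-CSF drops most in S100A8 + LLC, to a Ct of 25.61, and the housekeeping assays moved in opposite directions from HBSS + vehicle to HBSS + LLC.

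After subtraction of the housekeeping mean, TNF-α and MIF had the same order of groups, and each of the other 3 cytokines had an order of its own. IL-1β and IL-6 were at their highest in HBSS + vehicle, with a Ct above the housekeeping mean (delta Ct) of 2.83 and 7.78. TNF-α, GM-CSF and MIF were at their highest in S100A8 + vehicle, with a delta Ct of 4.87, 4.45 and 0.61. IL-1β and GM-CSF were at their lowest in S100A8 + LLC, at 4.72 and 6.33. TNF-α and MIF were at their lowest in HBSS + LLC, at 6.63 and 1.40, and IL-6 in S100A8 + vehicle, at 9.40. These orders depend on the reference. With the first housekeeping assay MIF was at its highest in HBSS + LLC (log2 1.18 against HBSS + vehicle). TNF-α was then at its lowest in S100A8 + LLC (-0.63), so that TNF-α and MIF no longer shared an order. Neighbouring groups were in places very close, as for TNF-α in the LLC groups, with 6.63 under HBSS and 6.54 under S100A8, and without a spread between mice no neighbouring pair can be said to differ. The range from the highest to the lowest group was 1.89 (log2) for IL-1β, 1.88 for GM-CSF, 1.76 for TNF-α and 1.62 for IL-6, near the median range of 1.75 over the 98 genes. MIF had the smallest range of the 5, 0.79, which was rank 89 of 98 from the widest. These ranges and this rank depend on the reference. In raw Ct, IL-6 had the widest range of the 5, 3.06 cycles, and MIF again the smallest, 1.26.

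The difference between cancer-bearing and cancer-free lungs under S100A8 was the comparison least affected by the reference. In S100A8 + LLC lungs GM-CSF was 3.68-fold lower than with S100A8 alone (log2 -1.88), and only 2 of 98 genes had a lower fold change. TNF-α was 3.18-fold lower (log2 -1.67), the rank 6 from the lowest. IL-1β was 2.36-fold lower (log2 -1.24), at rank 21 from the lowest. MIF had a log2 value of -0.64, within 2-fold, and IL-6 one of 0.39, the only value of the 5 above 0. Thus 3 of 5 cytokines were more than 2-fold lower and 0 more than 2-fold higher, against 29.6% of the 98 genes lower and 12.2% higher. The median of the 5 was -1.24 and that of the panel -0.44 (log2). With the first housekeeping assay alone the same 3 cytokines were more than 2-fold lower (24.5% of panel genes), and with the second alone also these 3 (33.7%). GM-CSF and TNF-α stayed more than 2-fold lower under all 5 references tried, which were the housekeeping mean, each housekeeping assay, the median Ct of the panel and no reference at all. IL-1β came to -0.79 with no reference.

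In S100A8 + LLC against HBSS + vehicle, the lungs that had neither treatment, the lowest value was that of IL-1β. It was 3.71-fold lower (log2 -1.89), rank 6 from the lowest of 98, and it was more than 2-fold lower under all 5 references, from -1.15 with the first housekeeping assay to -2.88 with no reference. TNF-α was 2.58-fold lower (log2 -1.37) and IL-6 2.35-fold lower (log2 -1.23), at ranks 12 and 13 from the lowest, and both stayed below 1-fold under each of the 5 references. GM-CSF had a log2 value of -0.94, which also stayed below 0 under each reference, and MIF one of -0.27, which turned to 0.47 with the first housekeeping assay. All 5 values lay below the panel median of -0.22, and the median of the 5 was -1.23. More than 2-fold lower were 3 of 5 cytokines, against 18.4% of panel genes, and 0 were more than 2-fold higher, against 22.4%. With the first housekeeping assay alone only IL-1β was more than 2-fold lower (8.16% of panel genes), and with the second alone all 5 were (48.0%).

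S100A8 without cancer went with opposite values for IL-6 and GM-CSF. With S100A8 alone, IL-6 was 3.07-fold below its value in HBSS + vehicle (log2 -1.62, rank 13 from the lowest of 97 genes), and it kept this direction under each of the 5 references, from -0.98 to -3.06. GM-CSF was 1.92-fold higher (log2 0.94, rank 28 from the highest), above 1-fold with either housekeeping assay and with the panel median, but at -0.50 in raw Ct with no reference. IL-1β had a log2 value of -0.65, which was -0.01 with the first housekeeping assay. TNF-α at 0.30 and MIF at 0.37 lay beside the panel median of 0.34, and both fell below 0 with the second housekeeping assay, with the panel median as reference and with no reference. More than 2-fold lower was 1 of 5 cytokines, against 17.5% of panel genes, and more than 2-fold higher were 0, against 27.8%. With the first housekeeping assay alone GM-CSF and MIF were more than 2-fold higher, in MIF by a narrow margin (log2 1.01), as were 49.5% of panel genes. With the second alone IL-6 and IL-1β were more than 2-fold lower, as were 30.9%.

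LLC cancers without S100A8 gave the values that depended most on the reference. TNF-α was 2.75-fold below its HBSS + vehicle value (log2 -1.46, rank 15 from the lowest of 98), but came to 0.14 with the first housekeeping assay. The log2 values were -0.86 for IL-1β, -0.63 for IL-6, -0.51 for GM-CSF and -0.42 for MIF, and each of these turned to between 0.74 and 1.18 with the first housekeeping assay. In raw Ct the 5 were all later in HBSS + LLC, by 1.12 cycles for TNF-α and by 0.52 cycles or less for the others. All 5 lay below the panel median of -0.19 (log2), which no reference can alter. More than 2-fold lower was 1 of 5 cytokines, against 21.4% of panel genes, and 0 were more than 2-fold higher, against 26.5%. With the first housekeeping assay alone GM-CSF and MIF were more than 2-fold higher (62.2% of panel genes), and with the second alone all 5 were more than 2-fold lower (63.3%).

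The cancer-bearing groups were treated alike except for S100A8. The paper reports delayed lung cancer growth and fewer myeloid-derived suppressor cells in cancer-bearing lungs after S100A8. Cancer load and cell make-up may therefore differ between these groups as well, which was not tested. Between them IL-1β had the lowest value of the 5 cytokines. With S100A8 it was 2.04-fold lower than with HBSS (log2 -1.03, rank 15 from the lowest of 98) and stayed below 1-fold under each reference, with -0.17 as the value nearest to 0. IL-6 had a log2 value of -0.60 and GM-CSF one of -0.43, and these turned to 0.26 and 0.43 with the second housekeeping assay. TNF-α at 0.09 and MIF at 0.15 turned to -0.77 and -0.71 with the first housekeeping assay, and were also below 0 with the panel median as reference and with none. More than 2-fold lower was 1 of 5 cytokines, against 15.3% of panel genes, and 0 were more than 2-fold higher, against 11.2%. With the first housekeeping assay alone IL-6, IL-1β and GM-CSF were more than 2-fold lower (44.9% of panel genes), and with the second alone MIF was more than 2-fold higher (39.8%).

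**Figure D2:**
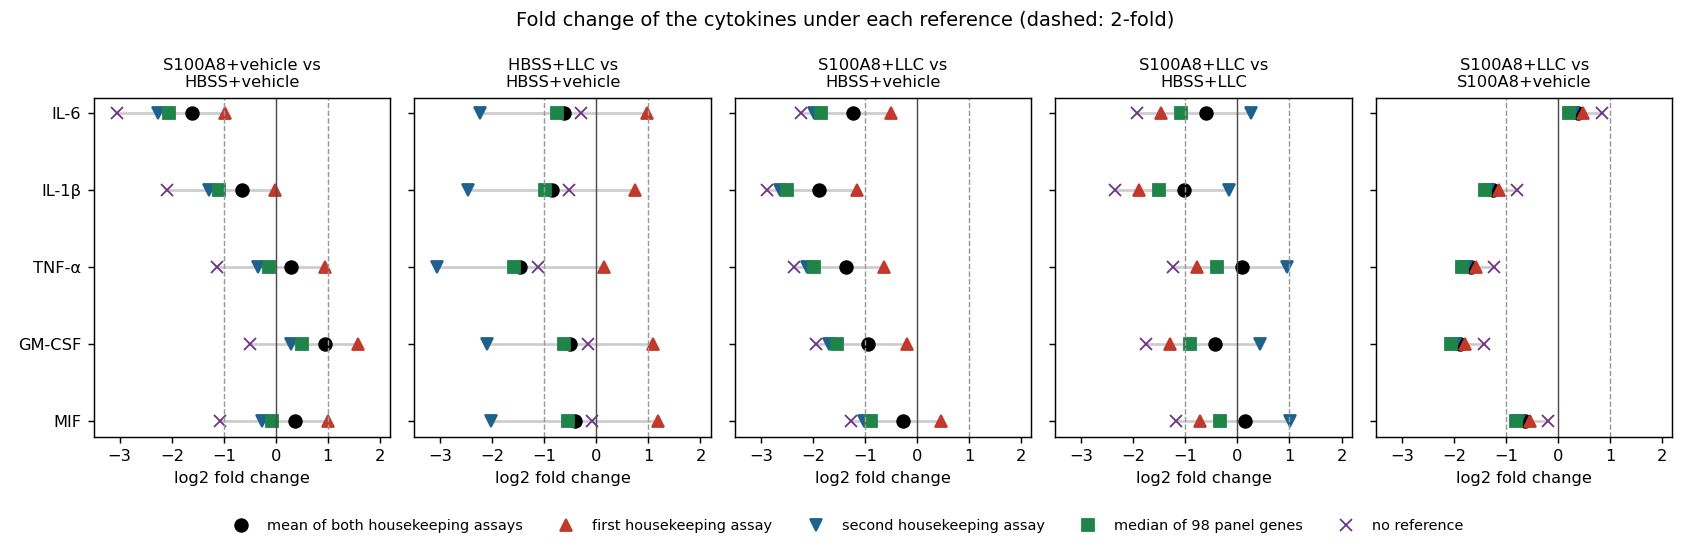
Log2 fold change (x axis) of each cytokine in the 5 comparisons under 5 references, with dashed lines at 2-fold; each symbol is 1 reference and there are no error bars because the data hold 1 mean per group. In S100A8 + LLC against S100A8 + vehicle the symbols lie close together, with TNF-α and GM-CSF beyond 2-fold lower throughout, whereas in HBSS + LLC against HBSS + vehicle they spread over 3.20 units between the housekeeping assays.

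Over the 25 pairs of cytokine and comparison, 9 were more than 2-fold apart, and in all 9 the cytokine was lower in the first-named group. Of panel genes, 17.5%, 21.4% and 18.4% were lower with S100A8 alone, LLC alone and both against HBSS + vehicle. There 27.8%, 26.5% and 22.4% were higher. Between the LLC groups 15.3% were lower and 11.2% higher, and between the S100A8 groups 29.6% and 12.2%. In 8 of the 9 cytokine pairs the direction held under every one of the 5 references, TNF-α in HBSS + LLC against HBSS + vehicle being the exception. In 3 of them the value stayed beyond 2-fold under every reference, namely IL-1β in S100A8 + LLC against HBSS + vehicle, and TNF-α and GM-CSF in S100A8 + LLC against S100A8 + vehicle. Of the 16 other pairs, 4 kept their direction. How many panel genes kept their direction, or stayed beyond 2-fold, under every reference was not counted. Comparisons against HBSS + vehicle share that group, and those with S100A8 + LLC share that one, so they are not independent of each other.

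**Figure D3:**
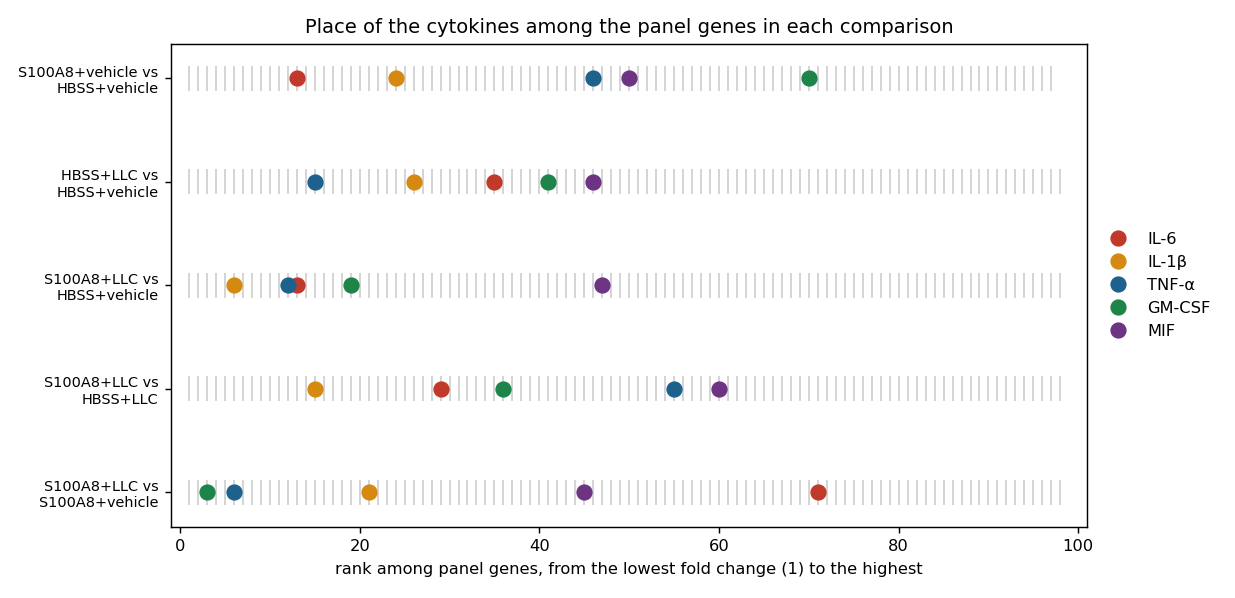
Rank of each cytokine among the panel genes in the 5 comparisons (x axis, from the lowest fold change at 1 to the highest; grey ticks are all ranked genes, 97 in S100A8 + vehicle against HBSS + vehicle and 98 elsewhere). IL-1β, TNF-α, IL-6 and GM-CSF stand between ranks 6 and 19 in S100A8 + LLC against HBSS + vehicle, and MIF stays between ranks 45 and 60 throughout. From the top to the bottom row IL-6 goes from rank 13 to 71 and GM-CSF from rank 70 to 3.

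MIF, whose place among the panel genes stayed near the middle, served as a comparator within the group, since the ratio of 2 cytokines is free of the housekeeping reference. Relative to MIF, IL-6 mRNA had a log2 value of -1.99 in S100A8 + vehicle against HBSS + vehicle, and IL-1β one of -1.02. For TNF-α it was -0.07 and for GM-CSF 0.57, so that with S100A8 alone IL-6 and IL-1β parted from the other members. In HBSS + LLC against HBSS + vehicle the ratio to MIF was -1.04 for TNF-α, -0.44 for IL-1β, -0.21 for IL-6 and -0.09 for GM-CSF. Here TNF-α had the lowest ratio. The share of panel genes beyond 2-fold relative to MIF was not counted. In S100A8 + LLC against HBSS + vehicle the values were -1.62 for IL-1β, -1.10 for TNF-α, -0.96 for IL-6 and -0.67 for GM-CSF. Between the LLC groups they were -1.18 for IL-1β, -0.75 for IL-6, -0.58 for GM-CSF and -0.06 for TNF-α. Between the S100A8 groups they were -1.24 for GM-CSF, -1.03 for TNF-α, -0.60 for IL-1β and 1.03 for IL-6. The widest separation within the group was that of IL-6 from GM-CSF, whose ratio had a log2 value of -2.56 in S100A8 + vehicle against HBSS + vehicle and of 2.27 in S100A8 + LLC against S100A8 + vehicle.

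The 4 groups form a 2 by 2 layout, in which the S100A8 difference with LLC can be set against that without LLC. Cancer load may differ between the LLC groups, so the differences compared here may not be matched for it. For IL-6 the S100A8 difference was -1.62 without LLC and -0.60 with it (log2), and the LLC difference was -0.63 with HBSS and 0.39 with S100A8. For GM-CSF the S100A8 difference was 0.94 without LLC and -0.43 with it. The difference of these differences was 1.02 for IL-6 and -1.37 for GM-CSF, against a panel median of -0.52 over 97 genes, which put IL-6 at rank 20 from the highest and GM-CSF at rank 31 from the lowest. For IL-1β, TNF-α and MIF it was -0.38, -0.21 and -0.22. The sign held with the panel median as reference and with none for each of the 5, but turned for IL-6 with the first housekeeping assay, at -0.48, and for the other 4 with the second.

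The profile of each cytokine over the 4 groups was set beside those of the 97 other panel genes, as the root mean square difference of centred Ct values, a measure no reference alters. GM-CSF and MIF each had a close neighbour. S100A9, the binding partner of S100A8 in neutrophils, lay at 0.0602 cycles from GM-CSF, followed by AGER at 0.117 and TIMP2 at 0.154. The Ct of S100A9 was 19.15, 19.53, 19.19 and 21.07 in the order of groups used above, so it too stood apart in S100A8 + LLC. CCL-4, a macrophage chemokine, lay at 0.0636 cycles from MIF, followed by p53 at 0.116 and the gene listed as SKY at 0.168. Over the panel the median distance of a gene to its nearest neighbour was 0.206.

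The neighbours of TNF-α were IRF-4, a lymphoid and myeloid transcription factor, at 0.223 cycles, STAT3 at 0.231 and iNOS, the inducible nitric oxide synthase, at 0.233. Those of IL-6 were the collagen COL10A1 at 0.240, the eosinophil chemokine CCL-11 at 0.287 and the collagen COL11A1 at 0.332. Those of IL-1β were the neutrophil chemokine CXCL-1 at 0.304, the cadherin CDH13 at 0.374 and NF-κB at 0.382. For these 3 cytokines the nearest gene was farther than the panel's median nearest distance. None of the 5 was among the 3 nearest genes of another, and the distance between members ran from 0.345 for TNF-α with GM-CSF to 1.05 for IL-6 with GM-CSF. With 4 points per profile, likeness here is a description only.

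**Figure D4:**
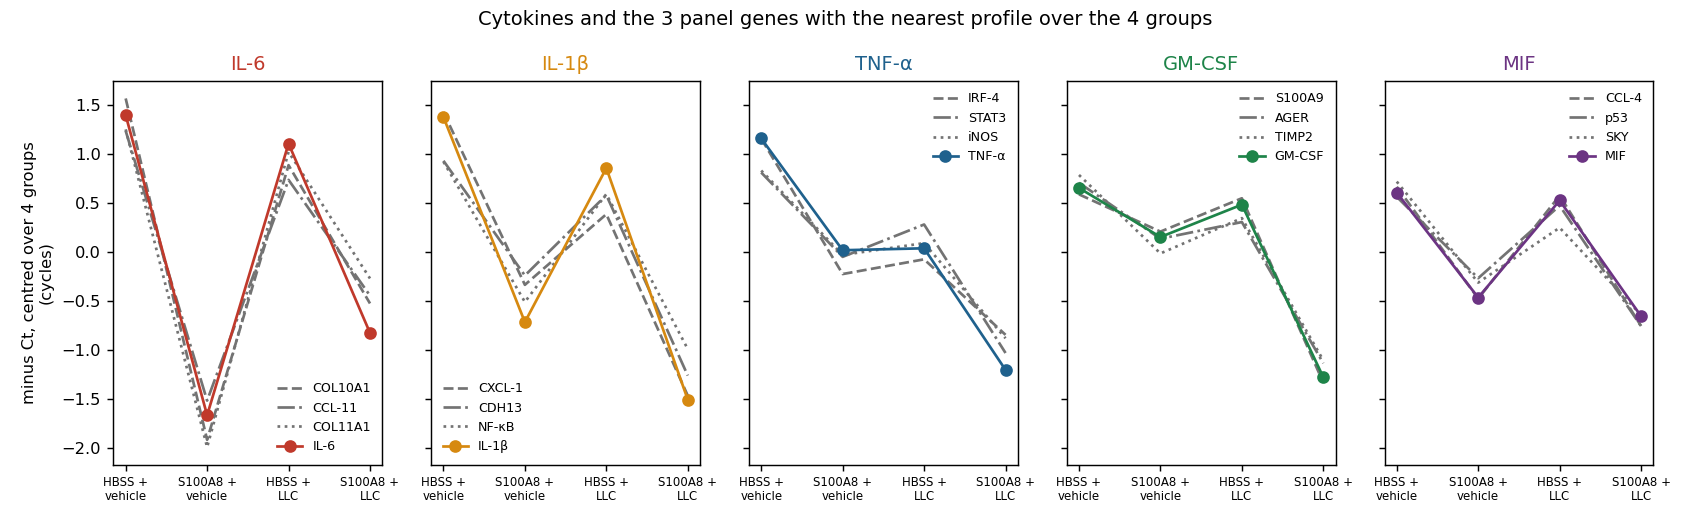
Profile of each cytokine (coloured points and line) and of the 3 panel genes nearest to it (grey lines) over the 4 groups, as minus Ct centred on the mean of the groups (cycles). IL-6 and its neighbours drop most in S100A8 + vehicle, while GM-CSF, S100A9, AGER and TIMP2 drop most in S100A8 + LLC; the root mean square difference of S100A9 from GM-CSF is 0.0602 cycles.

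The other colony-stimulating factors of the panel resembled GM-CSF in part. M-CSF, which sustains monocytes and macrophages, had a Ct of 24.03, 24.26, 23.72 and 25.06 and was 2.31-fold higher with S100A8 alone than in HBSS + vehicle, beside the 1.92-fold of GM-CSF. G-CSF, which drives neutrophil production, had a Ct of 31.61, 31.86, 32.19 and 31.99, in a range where few molecules are detected, and was 2.28-fold higher. For all 3 factors this direction came from the references, since in raw Ct they were later in S100A8 + vehicle, by 0.50 cycles for GM-CSF, 0.23 for M-CSF and 0.25 for G-CSF. Between the S100A8 groups M-CSF was 2.38-fold lower with LLC (log2 -0.80 with no reference), beside the 3.68-fold of GM-CSF, and G-CSF had a log2 value of -0.58. Between the LLC groups they parted, with -0.43 for GM-CSF, -0.01 for M-CSF and 1.53 for G-CSF, the last above 0 under every reference.

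Genes that act with or downstream of these cytokines were described by lists, counted relative to the housekeeping mean unless another reference is named. Of 4 signalling and acute-phase genes (NF-κB, STAT3, SOCS3 and SAA3), SOCS3 and SAA3 were more than 2-fold higher in S100A8 + vehicle against HBSS + vehicle, as were 27.8% of panel genes. SOCS3, the feedback inhibitor induced through STAT3, was 2.31-fold higher there and SAA3, an acute-phase protein induced by IL-1β and IL-6, 3.05-fold higher, in the group in which IL-6 was 3.07-fold lower. With no reference SOCS3 came to -0.23 and SAA3 to 0.17 (log2). In S100A8 + LLC against S100A8 + vehicle, STAT3, SOCS3 and SAA3 were more than 2-fold lower, with log2 values of -1.43, -1.43 and -1.05, as were 29.6% of panel genes. With no reference all 4 lay within 2-fold there. In the remaining comparisons 0 of the 4 passed 2-fold relative to the housekeeping mean, but this depended on the reference. In HBSS + LLC against HBSS + vehicle all 4 were more than 2-fold lower with the second housekeeping assay, as were 63.3% of panel genes.

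Of 8 chemokines that inflammatory cytokines induce, 0 were more than 2-fold higher in any of the 5 comparisons relative to the housekeeping mean. With the first housekeeping assay 3 of 8 were more than 2-fold higher in S100A8 + vehicle and 3 of 8 in HBSS + LLC, each against HBSS + vehicle, beside 49.5% and 62.2% of panel genes. More than 2-fold lower relative to the mean were 5 of 8 in S100A8 + LLC against S100A8 + vehicle (29.6% of panel genes), where CXCL-2, a neutrophil attractant, was 3.68-fold lower and CXCL-1 2.99-fold lower. In S100A8 + LLC against HBSS + vehicle 4 of 8 were lower (18.4% of panel genes), CXCL-1 by 3.73-fold as the lowest value, and the median of the 8 was -1.09 against -0.22 for the panel. In HBSS + LLC against HBSS + vehicle 3 were lower (21.4%), with CCL-2, a monocyte attractant, 4.92-fold lower, and in S100A8 + vehicle only CCL-2 was, 2.77-fold (17.5%). CCL-2 came there with the first housekeeping assay to -0.70 and -0.83 (log2), within 2-fold. With the second housekeeping assay all 8 were lower in both LLC groups against HBSS + vehicle, beside 63.3% of panel genes in HBSS + LLC and 48.0% in S100A8 + LLC. Between the LLC groups 0 passed 2-fold relative to the mean, against 3 lower with the first housekeeping assay (44.9% of panel genes) and 2 higher with the second (39.8%).

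Of 5 induced enzyme and adhesion assays, PTGS2 was the one more than 2-fold lower in both S100A8 comparisons, 3.36-fold without LLC and 2.11-fold with it, beside 17.5% and 15.3% of panel genes. The value with LLC came to -0.22 (log2) with the second housekeeping assay. The panel also lists COX-2, another name for the same prostaglandin synthase. Its assay was lower by 1.21-fold and 3.32-fold, the first of which turned to 0.36 (log2) with the first housekeeping assay, and its Ct in HBSS + vehicle was 28.51 against 21.90 for PTGS2, so the assays do not give the same value. ICAM-1, a leukocyte adhesion molecule, had the highest values of this list, with log2 12.88, 12.90 and 12.07 against HBSS + vehicle, where its Ct was 32.47.

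The other 13 cytokines of the panel gave a different count in each direction. More than 2-fold higher were 7 of 13 in each of the 3 comparisons against HBSS + vehicle, in which 0 of the 5 innate cytokines and 27.8%, 26.5% and 22.4% of panel genes were. With S100A8 alone 5 of them were more than 2-fold lower, with LLC alone 2 and with both 3, beside 17.5%, 21.4% and 18.4% of panel genes. Over the 5 references the number higher ran from 3 to 7 with S100A8 alone, from 6 to 10 with LLC alone and from 5 to 8 with both, and the number lower from 4 to 6, from 1 to 5 and from 2 to 5. Relative to the housekeeping mean, their median log2 values were 1.19, 1.68 and 1.84, against 0.30, -0.63 and -1.23 for the 5. IL-5, the growth factor of eosinophils, was more than 2-fold lower in both S100A8 comparisons, 4.03-fold without LLC and 3.32-fold with it, and so was IL-12β. With the second housekeeping assay the IL-5 value with LLC came to -0.87 (log2), within 2-fold, and IL-12β stayed beyond 2-fold under every reference. Between the LLC groups 3 of the 13 were higher and 4 lower (11.2% and 15.3% of panel genes), and between the S100A8 groups 2 and 3 (12.2% and 29.6%). Between the LLC groups 6 were lower with the first housekeeping assay (44.9% of panel genes) and 6 higher with the second (39.8%). In HBSS + vehicle, 8 of the 13 had a Ct above 30 and 0 of the 5 did. Those 8 supplied 5, 5 and 6 of the 7 that were higher with S100A8 alone, with LLC alone and with both.

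Markers of the cells that make these cytokines also differed between groups, and their part in the results was not tested. AGER and CAV1, both abundant in the alveolar epithelium, had a Ct between 14.95 and 18.56 in every group, so these defining lung markers were present throughout. AGER, for which the panel has another assay under its other name RAGE, was 3.29-fold lower in S100A8 + LLC against S100A8 + vehicle, where GM-CSF was 3.68-fold lower, and the RAGE assay 2.17-fold lower (log2 -0.67 with no reference), while CAV1 had a log2 value of 0.95. Of 4 myeloid markers, S100A8, S100A9 and ARG1 were more than 2-fold higher in S100A8 + vehicle against HBSS + vehicle, as were 27.8% of panel genes, but only ARG1 was with the second housekeeping assay. With no reference S100A8 came to -0.24 and S100A9 to -0.38 there (log2), and of these 3 only ARG1 kept its direction under every reference. ARG1 was also the only one of the 4 more than 2-fold higher in both LLC groups against HBSS + vehicle (26.5% and 22.4% of panel genes). S100A9 was 3.97-fold lower in S100A8 + LLC against S100A8 + vehicle (29.6%). NOX2, the phagocyte oxidase, stayed within 2-fold relative to the housekeeping mean, but in HBSS + LLC against HBSS + vehicle it ran from -0.90 to 2.30 (log2) over the references. Of 2 T cell markers, LCK was more than 2-fold lower in each of the 3 groups compared with HBSS + vehicle, by 3.10-fold with S100A8 alone, 5.17-fold with LLC alone and 3.63-fold with both (17.5%, 21.4% and 18.4% of panel genes were lower). It came with the first housekeeping assay to -0.99, -0.77 and -1.12 (log2), so that only the last stayed beyond 2-fold. IL-2, the other T cell marker, lay above 35 cycles in all 4 groups, so its fold changes rest on few molecules. It went against LCK in S100A8 + LLC against HBSS + vehicle, 3.76-fold higher (log2 0.92 to 2.65 over the references), beside 22.4% of panel genes higher. Between the LLC groups it was 2.06-fold higher (-0.29 to 1.90), beside 11.2%. Of 4 other epithelial markers, CDH1 was more than 2-fold higher and KRT5 more than 2-fold lower in all 3 comparisons against HBSS + vehicle, under every reference, beside the panel shares given above for those comparisons. KRT14 went against KRT5 with both treatments, 6.11-fold higher (log2 1.62 to 3.35 over the references), but was 3.20-fold lower with LLC alone (-3.28 to -0.08). Between the LLC groups KRT14 was 19.6-fold higher (2.96 to 5.15), beside 11.2% of panel genes higher. Between the S100A8 groups KRT14 was higher (log2 2.60) and MUC1 and CDH1 lower (-1.45 and -1.41). MUC1 was within 2-fold elsewhere relative to the mean. MKI67, the proliferation marker, stayed within 2-fold in all 5 comparisons relative to the housekeeping mean, but in HBSS + LLC against HBSS + vehicle it ran from -2.06 to 1.14 over the references.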

How the data were processed

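RNA of whole lungs was reverse-transcribed (1.5 µg) and amplified by RT-qPCR with a cut off of 38 cycles. The authors averaged Ct over 4 to 5 mice and deposited 1 mean Ct per assay and group, not normalized. A further deposited table holds their own comparisons with HBSS + vehicle, each a ratio of normalized expression. These deposited ratios were used only to name the assays, by matching them with the values printed by gene in the study's supplement, and are not reported. All 98 genes matched exactly 1 assay (294 values, largest difference 0.000269%), and the 2 assays left over were taken as the housekeeping genes. Depth in reads does not apply, and the precision of the means is unknown.

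Delta Ct was Ct minus the housekeeping mean, and a difference of 1 in delta Ct was taken as 2-fold. A gene at 38 cycles in both groups was not ranked. Named genes are the 5 members, the 3 nearest genes of each, the 2 other colony-stimulating factors, and from each list the genes beyond 2-fold in both S100A8 comparisons or at its extremes. Others were named after their values were seen. Members and lists were chosen with earlier results of these data known. Alternatives were other references, thresholds of 1.5 and 3, a Ct filter of 30, a cap at 35 and another distance. Functions were tested on simulated Ct values. Promoters and their coordinates are from RefSeq tables of GRCm38.p6, in which all 5 genes were found. Python 3.11.15, numpy 2.4.6 and matplotlib 3.10.9 were used.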

Additional observations from a re-analysis of the deposited data

Results flagged for a closer look

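For IL-6, the LLC difference had opposite signs with HBSS (log2 -0.63) and with S100A8 (0.39), and the difference between them was 1.02. For GM-CSF, the S100A8 difference had opposite signs without LLC (0.94) and with LLC (-0.43), and the difference between them was -1.37. The opposite signs depend on the reference. With the first housekeeping assay both IL-6 values were above 0 (0.97 and 0.49), and with the second both GM-CSF values were (0.30 and 0.43). With 1 averaged value per group these differences were not tested, and cancer load may differ between the LLC groups.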

How the results depend on the processing

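The 5 cytokines were under 30 cycles in every group, so the filter at 30 and the cap at 35 left all 25 fold changes as they were. The count beyond 2-fold in S100A8 + LLC against S100A8 + vehicle was within 1.5 times its value of 3 lower and 0 higher under every alternative run. Elsewhere counts changed. In S100A8 + vehicle against HBSS + vehicle, 1 lower became 0 with the first housekeeping assay, 2 with the second, 2 with the panel median, 4 with no reference and 2 at 1.5-fold, and 0 higher became 2 with the first assay and 1 at 1.5-fold. In HBSS + LLC against HBSS + vehicle, 1 lower became 0 with the first assay, 5 with the second, 3 at 1.5-fold and 0 at 3-fold, and 0 higher became 2 with the first. In S100A8 + LLC against HBSS + vehicle, 3 lower became 1 with the first assay, 5 with the second, 5 with no reference and 1 at 3-fold. Between the LLC groups, 1 lower became 3 with the first assay, 0 with the second, 2 with the panel median, 5 with no reference, 2 at 1.5-fold and 0 at 3-fold, and 0 higher became 1 with the second. TNF-α in HBSS + LLC against HBSS + vehicle reversed to 0.14 (log2) with the first assay. The S100A8 difference with LLC minus that without became, with the first assay, second assay, panel median and no reference in turn, -0.48, 2.52, 0.97 and 1.13 for IL-6, -1.88, 1.12, -0.43 and -0.27 for IL-1β, -1.71, 1.29, -0.26 and -0.10 for TNF-α, -2.87, 0.13, -1.42 and -1.26 for GM-CSF, and -1.72, 1.28, -0.27 and -0.11 for MIF. These changes follow from the construction of the alternatives, since a reference shifts all genes alike. Why the housekeeping assays parted was not tested. Fold changes from the authors' deposited ratios were not run, because those are the authors' own comparisons. No paired analysis was possible because each group has 1 averaged value.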
